A study of Mus musculus with 2 samples.

Results

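Glycolysis and hypoxia genes were followed in 2 mouse brain sections taken after CCI (controlled cortical impact, which bruises the cortex at 1 place). The set was a list of 33 gene symbols that covers glucose entry, the steps from glucose to pyruvate, the handling of lactate and pyruvate, and the sensing of low oxygen. Of these, 32 were analysed, out of 19070 genes in all, and Eno1 was not analysed here. Members were picked by gene name, from a list drawn up with earlier results of these data known. The CCI 3 days section and the CCI 28 days section each came from a male C57Bl6 mouse labelled as 3 months old, with the impact above the right parietal lobe. For the CCI mice of their single-cell work the authors give 3 months as the age at impact. There was 1 section at each time, no sham-operated section was analysed here, and a difference between the sections cannot be told apart from a difference between 2 animals. The tissue was fixed and embedded in paraffin, and each gene was read with its own probes on a Visium HD array, so levels of different genes are not compared with each other.

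Glycolysis splits glucose into pyruvate, which cells either pass to mitochondria through the pyruvate dehydrogenase complex or reduce to lactate and export through monocarboxylate transporters. In brain, neurons and glia are known to use different isozymes and different transporters for the same steps, and microglia and invading macrophages are known to raise glycolysis when activated. Low oxygen stabilises the transcription factor subunit HIF-1 alpha, which binds hypoxia response elements and raises many glycolytic genes, while the prolyl hydroxylases that mark it for breakdown are themselves among its targets.

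Counts of unique molecular identifiers (UMIs) were given for bins of 16 µm. The 3 days section held 120615873 UMIs in 121967 bins, and the 28 days section held 82422389 UMIs in 105589 bins. The injured side was the part of the array left of column 130 at 3 days and of column 240 at 28 days. On that side a lesion zone was placed with 6 phagocyte genes that are not in the set (Cd68, Lyz2, Ctsz, Lgals3, Cd52 and Laptm5). It held 8384 bins at 3 days and 13559 bins at 28 days, and its reflection on the opposite side, called the mirror area, held 8555 and 12447 bins. Levels are given as CPM, a gene's UMIs in an area scaled to the same fixed total of UMIs for every area, and all intervals are 95% intervals that cover counting error only, because bins of 1 section are not replicates and no test between conditions was possible. At 3 days the zone ran into the border of the array, with 594 of its bins in the first 5 columns, and at 28 days the mirror area was cut by the opposite border, so that 86.6% of zone bins had a mirror bin.

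The lesion zone differed from its mirror area in its cells as well as in the set. The neuron list (7 of 7 genes lower in both sections) was at 2112 CPM in the zone and 7870 CPM in the mirror area at 3 days, and at 2811 and 7484 CPM at 28 days. The late phagocyte list (5 of 5 genes higher in both sections) was at 1236 against 93.2 CPM at 3 days, then 4105 against 72.1 CPM at 28 days. The astrocyte list was at 2225 against 1937 CPM at 3 days, with 5 of 6 genes higher, and at 5163 against 2445 CPM at 28 days, with 6 of 6 higher. The reactive astrocyte list was 4.76-fold and 29.8-fold higher at 3 and 28 days, the microglia list 3.18-fold and 12.4-fold, and the macrophage and monocyte list 17.1-fold and 8.58-fold. The zone was placed with phagocyte genes. High levels there of the late phagocyte, microglia and macrophage lists therefore follow from its placement and are no separate result. The oligodendrocyte list was 2.78-fold higher at 3 days and 1.05-fold higher at 28 days, and the choroid plexus list was 3.61-fold and 7.76-fold lower. The fibroblast list was 5.52-fold and 7.92-fold higher, and the endothelium list 3.28-fold and 1.41-fold higher. No marker of these lists was at 0 in either area. In such bins, fewer cells of a type and less RNA per cell cannot be told apart, and the part of these cell lists in the values that follow was not tested.

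**Figure D1:**
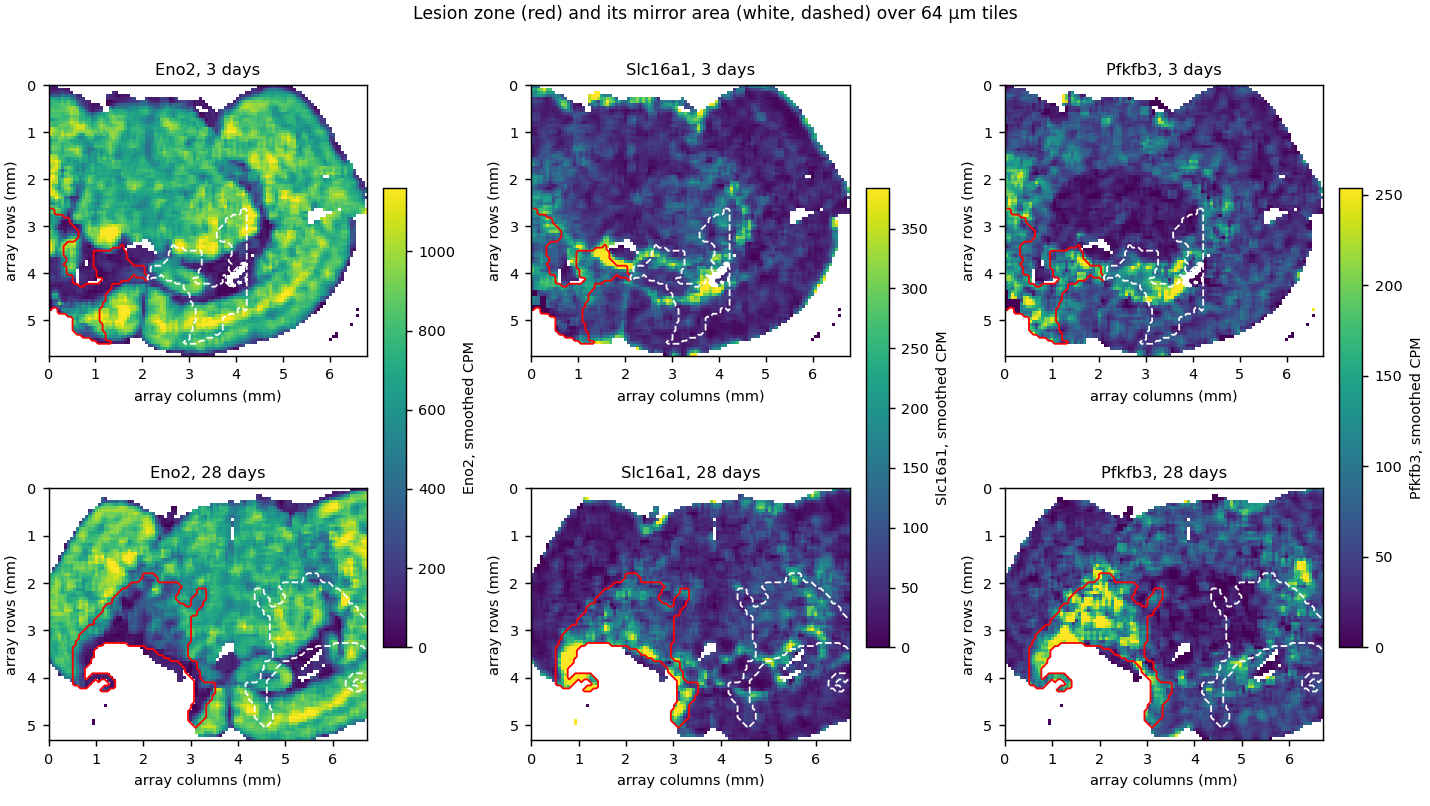
Smoothed levels in CPM of Eno2, Slc16a1 and Pfkfb3 over tiles of 64 µm in the 3 days section (upper row) and the 28 days section (lower row), with axes in mm along the array. The lesion zone is outlined in red and the mirror area in dashed white: Eno2 was dark in much of the red outline in both sections, and Slc16a1 and Pfkfb3 were bright in parts of it.

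Members lay on both sides of the mirror level in the lesion zone, and the balance at 3 days depended on the reference. With at least 200 UMIs over the zone and the mirror area, 29 members could be read at 3 days, and 4 of them were at least 1.5-fold higher, 10 at least 1.5-fold lower and 15 within that fold. With a symmetry line fitted to regional genes the counts at 3 days were 6 higher and 6 lower, against the whole opposite side 8 and 8, and with the zone placed by the 95th percentile 5 and 4. No share of all genes is given under these 3 settings, so their counts show only that the balance depends on the setting. Of all 9933 genes read in the zone and its mirror area at 3 days, 22.0% were at least 1.5-fold higher and 17.5% at least 1.5-fold lower. At 28 days 28 members could be read, with 5 higher, 7 lower and 16 within the fold, against 17.0% higher and 18.9% lower among 10206 genes. Slc16a3 at 3 days and Hk2 at 28 days reached 200 UMIs only through the zone and could then only be higher, so these calls add nothing to the counts. The median log2 ratio of the members, zone over mirror area, was -0.26 in both sections, and the median over all genes was 0.06 at 3 days and -0.07 at 28 days. Zone bins held fewer UMIs than mirror bins, 602 against 935 at 3 days and 528 against 642 at 28 days. Counted as UMIs per bin rather than as CPM, 1 member was higher and 22 were lower at 3 days, and 4 were higher and 12 lower at 28 days, with all-gene medians of -0.58 and -0.35. No share of all genes past the fold is given on this scale, so nothing about the members is read from these counts. Of the 27 members read in both sections, 24 had the same sign of ratio in both. No share of all genes is given beside this count either, so nothing about the members is read from it.

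**Figure D2:**
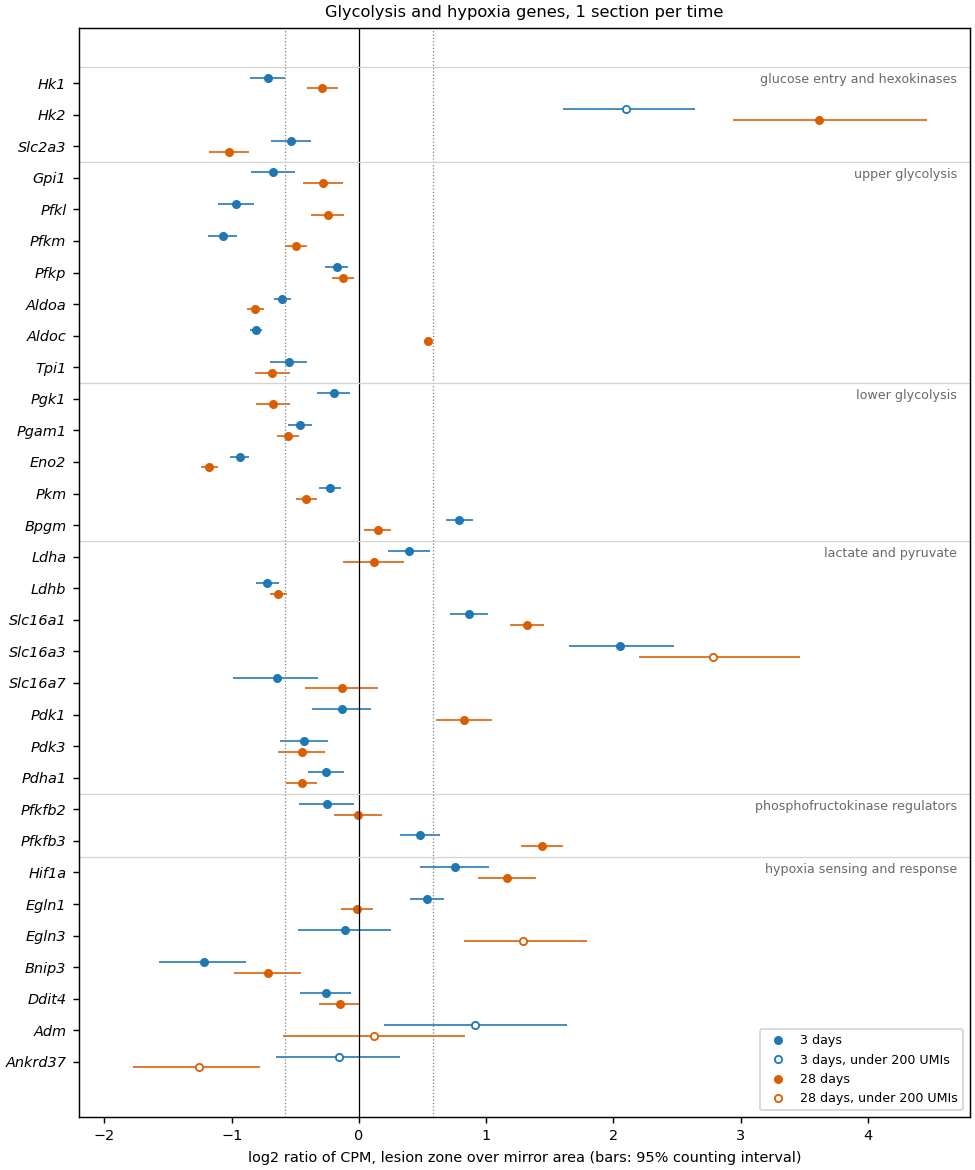
Log2 ratio of CPM, lesion zone over mirror area, for all 32 members in their roles, at 3 days (blue) and 28 days (orange), with 95% counting intervals as bars and dotted lines at a fold of 1.5. Open points have fewer than 200 UMIs over both areas, and Hk2 and Slc16a3 stand farthest to the right at both times.

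Glucose entry and the hexokinases showed the widest spread. Hk2, the inducible hexokinase bound to mitochondria, had 120 UMIs in the zone and 44 in the mirror area at 3 days (23.8 and 5.50 CPM), and 192 and 17 UMIs at 28 days (26.8 and 2.13 CPM). It was thus higher in the zone in both sections, with log2 ratios of 2.10 (1.60 to 2.65) and 3.62 (2.94 to 4.47). Against the whole opposite side, which held 2.54 and 2.52 CPM, the ratios of Hk2 were 3.23 and 3.41. Hk1, the hexokinase that neurons use, was at 121 against 198 CPM at 3 days, then 128 against 156 CPM at 28 days, log2 ratios of -0.72 (-0.85 to -0.58) and -0.29 (-0.41 to -0.16). The 2 hexokinases therefore lay on opposite sides of the mirror level. Slc2a3, the high-affinity glucose transporter of neurons, was at 92.9 against 135 CPM at 3 days, then 66.6 against 135 CPM at 28 days. Its log2 ratio of -1.02 (-1.18 to -0.86) at 28 days was past the fold, and that of -0.53 (-0.69 to -0.38) at 3 days was within it.

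In upper glycolysis, 5 of 7 members were at least 1.5-fold lower than in the mirror area at 3 days (17.5% of all genes) and 2 of 7 at 28 days (18.9%). The whole opposite side held 115 CPM of Gpi1 and 645 CPM of Aldoa at 3 days, and against it both were within the fold. Pfkm and Pfkl, which encode the muscle and liver forms of phosphofructokinase, were at 162 against 340 CPM and 106 against 208 CPM at 3 days. Their levels at 28 days were 268 against 378 CPM and 122 against 144 CPM. Against the mirror area, the deficit of both was larger in the 3 days section, with log2 ratios of -1.07 (-1.19 to -0.96) and -0.96 (-1.11 to -0.82). In the 28 days section the ratios were -0.49 (-0.58 to -0.41) and -0.24 (-0.37 to -0.12). The whole opposite side held 327 CPM of Pfkm and 165 CPM of Pfkl at 3 days, and 343 and 159 CPM at 28 days. For Pfkl the mirror area thus differed more between the sections than the whole opposite side did. Pfkp, the platelet form, was close to the mirror level in both sections, with -0.17 (-0.27 to -0.08) and -0.12 (-0.21 to -0.04). Gpi1, which turns glucose 6-phosphate into fructose 6-phosphate, was at 77.9 against 124 CPM at 3 days and 81.7 against 99.4 CPM at 28 days, log2 ratios of -0.68 (-0.85 to -0.51) and -0.28 (-0.44 to -0.13).

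The aldolases cleave fructose 1,6-bisphosphate, and the pair went apart. Aldoc, the aldolase that marks astrocytes, was at 869 CPM in the zone and 1522 CPM in the mirror area at 3 days, and at 3104 and 2132 CPM at 28 days. Its log2 ratio was below 0 at 3 days, at -0.81 (-0.86 to -0.76), and above 0 at 28 days, at 0.54 (0.51 to 0.57), and no other member past the fold in either section changed sign in this way with both intervals clear of 0. Aldoa was lower in both sections, at 506 against 768 CPM and 383 against 673 CPM, log2 ratios of -0.60 (-0.67 to -0.54) and -0.82 (-0.88 to -0.75). Aldoa has a second row in the table under another gene identifier, with 26 and 12 UMIs in all, which was kept apart. Tpi1, which interconverts the 2 triose phosphates, was at 115 against 168 CPM and 95.01 against 152 CPM, log2 ratios of -0.55 (-0.70 to -0.41) and -0.68 (-0.82 to -0.54).

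In lower glycolysis, Eno2 carried the largest deficit that was past the fold in both sections. Eno2, the neuronal enolase, was at 394 CPM in the zone and 754 CPM in the mirror area at 3 days, and at 342 and 774 CPM at 28 days. Its log2 ratios were -0.94 (-1.01 to -0.86) and -1.18 (-1.24 to -1.11). For Pgk1, which makes the first ATP of glycolysis, the zone held 148 CPM and the mirror area 170 CPM at 3 days, then 103 and 164 CPM at 28 days, and only the ratio at 28 days, -0.67 (-0.81 to -0.54), was past the fold. The whole opposite side held 138 CPM of Pgk1 at 28 days, and against it Pgk1 was within the fold. Pgam1 and Pkm, for phosphoglycerate mutase and the muscle form of pyruvate kinase, stayed within the fold in both sections, with log2 ratios from -0.56 to -0.23. Bpgm, which makes 2,3-bisphosphoglycerate, was the exception of this group. It was at 303 against 175 CPM at 3 days, then 212 against 191 CPM at 28 days, log2 ratios of 0.79 (0.68 to 0.89) and 0.15 (0.04 to 0.25), and counted per bin the ratio of Bpgm was 0.15 at 3 days and below 0, at -0.13, at 28 days.

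Bpgm is best known for its part in red blood cells, and the erythrocyte list was 40.1-fold higher in the 3 days zone, at 233 against 5.75 CPM, with 3 of 4 genes higher. With all bins that held an erythrocyte UMI left out, the log2 ratio of Bpgm at 3 days was 0.77. Inside the 3 days zone, tiles of 64 µm richest in the erythrocyte list held 259 CPM of Bpgm and the remaining tiles 308 CPM. Tiles richest in the oligodendrocyte list held 551 CPM of Bpgm and the remaining tiles 259 CPM. Which cells the Bpgm counts of the zone came from was not tested.

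Among the genes of lactate and pyruvate, the transporter genes Slc16a3 and Slc16a1 were higher and Slc16a7 was not. Slc16a3 encodes MCT4, a lactate exporter of strongly glycolytic cells. It had 184 UMIs in the zone and 70 in the mirror area at 3 days (36.5 and 8.75 CPM), and 163 and 26 at 28 days (22.8 and 3.25 CPM), log2 ratios of 2.05 (1.65 to 2.48) and 2.78 (2.20 to 3.46). Against the whole opposite side the ratios of Slc16a3 were 3.01 and 2.39, so the order of the sections turned. Slc16a1, for the widely expressed MCT1, was at 161 against 88.6 CPM and 207 against 83.0 CPM, log2 ratios of 0.86 (0.72 to 1.01) and 1.32 (1.19 to 1.46). Counted per bin, Slc16a1 was within the fold at 3 days, at 0.23, and past it at 28 days, at 1.04. Slc16a7, for MCT2 of neurons, was at 21.4 against 33.6 CPM and 26.1 against 28.7 CPM, log2 ratios of -0.65 (-0.99 to -0.32) and -0.13 (-0.42 to 0.15).

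The lactate dehydrogenase subunits differed in the same sections. Ldhb, the subunit that favours pyruvate, was at 278 against 458 CPM at 3 days and 445 against 690 CPM at 28 days, log2 ratios of -0.72 (-0.81 to -0.63) and -0.63 (-0.70 to -0.57). Against the whole opposite side, at 553 CPM, Ldhb at 28 days was within the fold. Ldha, the subunit that favours lactate and a HIF-1 target, was at 105 against 80.2 CPM and 40.9 against 37.8 CPM, log2 ratios of 0.39 (0.23 to 0.56) and 0.11 (-0.12 to 0.35). Counted per bin the ratio of Ldha was below 0 in both sections, at -0.24 and -0.17. Pdk1 and Pdk3 encode kinases that switch off pyruvate dehydrogenase. Pdk1 was at 48.8 against 53.6 CPM at 3 days, then 61.9 against 34.9 CPM at 28 days, log2 ratios of -0.14 (-0.37 to 0.09) and 0.82 (0.61 to 1.05). Against the whole opposite side in place of the mirror area, the ratio of Pdk1 at 28 days was 0.22. Pdk3 and Pdha1, a subunit of the dehydrogenase itself, were within the fold in both sections, with log2 ratios from -0.45 to -0.26.

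Of the regulators of phosphofructokinase, Pfkfb3 lay past the fold at 28 days and Pfkfb2 in neither section. Pfkfb3, which makes the activator fructose 2,6-bisphosphate, was at 124 CPM in the zone and 88.7 CPM in the mirror area at 3 days, and at 145 and 53.5 CPM at 28 days. The log2 ratio of Pfkfb3 went from 0.48 (0.32 to 0.64) in the earlier section to 1.44 (1.28 to 1.61) in the later one, 0.96 (0.74 to 1.19) apart. The mirror area at 3 days was itself above the 50.4 CPM of the whole opposite side, and against that side the ratio of Pfkfb3 at 3 days was 1.30. Counted per bin against the mirror area it was -0.16. Pfkfb2 stayed within the fold, at 54.3 against 64.6 CPM and 61.8 against 62.1 CPM.

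The hypoxia genes did not move as 1 block. Hif1a, the oxygen-regulated subunit itself, was at 47.0 CPM in the zone and 27.9 CPM in the mirror area at 3 days, and at 66.6 and 29.8 CPM at 28 days, log2 ratios of 0.75 (0.48 to 1.02) and 1.16 (0.93 to 1.39). Counted per bin, Hif1a was within the fold at 3 days, at 0.12, and past it at 28 days, at 0.88. Bnip3, a mitophagy receptor induced by hypoxia, was lower in both sections, at 18.4 against 43.0 CPM and 26.4 against 43.4 CPM, log2 ratios of -1.22 (-1.57 to -0.89) and -0.72 (-0.98 to -0.46). Against the whole opposite side, at 39.1 CPM, Bnip3 at 28 days was within the fold. Of the prolyl hydroxylases, Egln1 (PHD2) was within the fold in both sections, at 177 against 123 CPM and 133 against 134 CPM, and counted per bin its ratio at 3 days was -0.10. Egln3 (PHD3) had 101 UMIs in the zone and 173 in the mirror area at 3 days, and 119 and 54 at 28 days. The interval of Egln3 spanned 0 at 3 days, at -0.11 (-0.48 to 0.25), and lay above it at 28 days, at 1.29 (0.82 to 1.79). With a symmetry line fitted to regional genes, the ratio of Egln3 at 3 days was 0.74 instead.

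The remaining hypoxia members were weakly counted or near the mirror level. Ddit4, an inhibitor of mTOR signalling, was at 61.0 against 73.1 CPM and 78.4 against 87.0 CPM. Adm, a vasodilator peptide, had 38 and 32 UMIs at 3 days and 35 and 36 at 28 days, log2 ratios of 0.91 (0.20 to 1.64) and 0.12 (-0.60 to 0.83), and against the whole opposite side Adm was at 0.78 at 28 days. Ankrd37, a small hypoxia-induced gene, had 57 and 101 UMIs at 3 days and 48 and 129 at 28 days, log2 ratios of -0.15 (-0.65 to 0.32) and -1.26 (-1.78 to -0.78).

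ACGTG is a form of the core of the hypoxia response element, and the 250 bases before the start of 6 members are shown. Only this form was searched, so the core below means ACGTG alone, and other forms are not marked or counted. They are 6 of the 8 members past the fold in the same direction in both sections by CPM, counted without the minimum of UMIs. They were chosen to show windows with and without the core, and Aldoa and Ldhb are the others. Hk2 at 3 days and Slc16a3 at 28 days were under that minimum. Hk2 at 28 days and Slc16a3 at 3 days reached it only through the zone, which fixed their calls. The sequences are those of RefSeq on GRCm38.p6, written 5′ to 3′ on the strand of the gene, with ACGTG and its reverse complement CACGT in capitals. Hk2, Slc16a3, Slc16a1 and Hif1a were higher in the zone, and Bnip3 and Eno2 were lower.
Hk2 (chr6:82774455-82774704, minus strand): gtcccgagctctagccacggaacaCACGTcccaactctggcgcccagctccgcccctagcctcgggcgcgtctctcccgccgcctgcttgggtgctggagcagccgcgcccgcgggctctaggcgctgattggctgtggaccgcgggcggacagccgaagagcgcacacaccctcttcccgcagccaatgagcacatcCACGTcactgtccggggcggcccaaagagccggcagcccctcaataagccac
Slc16a3 (chr11:120948817-120949066, plus strand): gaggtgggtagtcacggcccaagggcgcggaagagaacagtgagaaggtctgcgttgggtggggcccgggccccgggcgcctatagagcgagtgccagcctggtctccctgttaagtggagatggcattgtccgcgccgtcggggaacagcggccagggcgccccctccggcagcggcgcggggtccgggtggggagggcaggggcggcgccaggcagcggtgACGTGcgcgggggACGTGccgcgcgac
Slc16a1 (chr3:104638414-104638663, plus strand): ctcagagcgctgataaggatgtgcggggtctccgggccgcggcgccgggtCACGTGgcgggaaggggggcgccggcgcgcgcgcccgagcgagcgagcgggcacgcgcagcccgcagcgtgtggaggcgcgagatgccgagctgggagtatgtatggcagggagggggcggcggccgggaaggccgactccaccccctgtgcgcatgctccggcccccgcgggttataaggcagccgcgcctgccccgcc
Hif1a (chr12:73907617-73907866, plus strand): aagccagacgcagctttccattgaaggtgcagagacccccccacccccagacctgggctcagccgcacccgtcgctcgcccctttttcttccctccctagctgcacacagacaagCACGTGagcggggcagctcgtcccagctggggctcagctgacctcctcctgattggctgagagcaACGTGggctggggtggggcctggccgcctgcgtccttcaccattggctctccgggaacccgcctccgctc
Bnip3 (chr7:138909507-138909756, minus strand): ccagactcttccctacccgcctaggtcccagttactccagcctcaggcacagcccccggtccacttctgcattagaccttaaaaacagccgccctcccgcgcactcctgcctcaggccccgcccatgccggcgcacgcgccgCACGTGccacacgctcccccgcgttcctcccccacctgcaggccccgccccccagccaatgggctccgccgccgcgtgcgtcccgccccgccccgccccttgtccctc
Eno2 (chr6:124769674-124769923, minus strand): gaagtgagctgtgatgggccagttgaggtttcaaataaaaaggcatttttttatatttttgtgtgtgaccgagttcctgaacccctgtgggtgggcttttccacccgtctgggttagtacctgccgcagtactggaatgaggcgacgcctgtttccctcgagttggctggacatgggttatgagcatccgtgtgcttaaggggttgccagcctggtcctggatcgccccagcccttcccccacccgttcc

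Hk2 and Slc16a3 held the core 2 times each, on separate stretches, and Slc16a1 and Bnip3 held it as the palindrome CACGTG, which counts on both strands. Hif1a held 1 palindrome and 1 further copy, and Eno2 held none. Windows of 30 members were matched, Slc2a3 and Slc16a7 were not, and genes with several starts had several windows. The core was in at least 1 window of 18 of the 30 members, and in at least 1 window of 18.5% of 27025 genes. Taken by window, it was in 22 of 43 windows of members and in 16.6% of all 32851 windows. The list was drawn up to hold hypoxia genes, so the share of members with the core beside that of all genes is no test. A match describes the letters only. Bnip3 and Hif1a carried the palindrome alike, and their ratios lay on opposite sides of 0.

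The share of UMIs that each gene took within a pair of isozymes was compared between the areas for 9 pairs. Hk2 took 16.5% (13.8 to 19.4) of the UMIs of Hk2 and Hk1 in the 3 days zone and 2.70% (1.97 to 3.60) in the mirror area. In the 28 days section it took 17.3% (15.2 to 19.7) in the zone and 1.35% (0.786 to 2.15). Slc16a3 took 63.0% (57.2 to 68.6) of the UMIs of Slc16a3 and Slc16a7 in the 3 days zone against 20.6% (16.5 to 25.4), and 46.6% (41.3 to 52.0) against 10.2% (6.77 to 14.6) at 28 days. Both pairs were thus shifted in the same direction at both times, toward Hk2 and toward Slc16a3.

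Ldha took 27.5% (25.5 to 29.5) of the UMIs of Ldha and Ldhb in the 3 days zone against 14.9% (13.8 to 15.99), and 8.43% (7.52 to 9.40) against 5.20% (4.64 to 5.80) at 28 days. Against the whole opposite side, the share of Ldha at 28 days was 0.26 percentage points lower in the zone. Aldoa took 36.8% (35.7 to 38.0) of the UMIs of Aldoa and Aldoc at 3 days against 33.5% (32.9 to 34.2), and 10.97% (10.6 to 11.4) against 24.0% (23.4 to 24.6) at 28 days. Against the mirror area, the aldolase pair was the one of the 9 whose shift turned between the sections. Against the whole opposite side, Pdk1 with Pdk3 (-4.63 percentage points at 3 days), Ldha with Ldhb and Pfkl with Pfkm (-0.50 at 28 days) turned as well. In the other pairs, Slc16a1 with Slc16a7, Pfkfb3 with Pfkfb2, Pfkp with Pfkm, Pfkl with Pfkm and Pdk1 with Pdk3, the gene named first took a larger share in the zone at both times, and the intervals of the areas overlapped for Pfkl and for Pdk1 at 3 days.

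**Figure D3:**
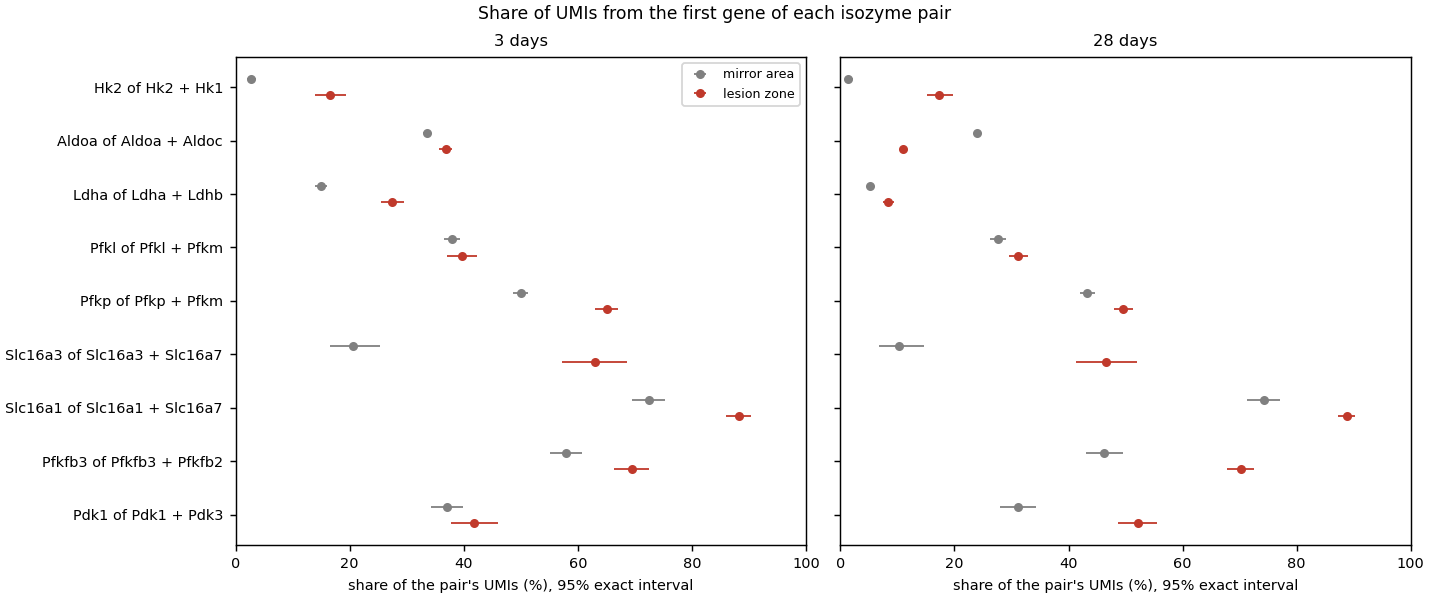
Share in percent of the UMIs of each isozyme pair that came from the gene named first, in the lesion zone (red) and the mirror area (grey), with 95% exact intervals. The zone lay to the right of the mirror area for each pair at 3 days, and at 28 days for all but Aldoa with Aldoc.

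Distance from the lesion was read in 6 bands, 2 inside the zone (over 250 µm from its border, and within 250 µm) and 4 outside it up to 2000 µm, each against its own reflection. At 3 days the symmetry line fitted to regional genes lay 384 µm from the line used for these reflections, more than the 250 µm width of the near bands. The band values given here for that section use column 130, so a band and its reflection may hold different regions. In the inner band at 3 days, 21 members had at least 200 UMIs, of which 3 were at least 1.5-fold higher (background 17.7% of genes) and 4 lower (25.7%). In the band inside the border 28 members were read, with 2 higher (20.3%) and 9 lower (17.2%). At 28 days, 4 members were higher (17.8%) and 11 lower (29.6%) among 26 in the inner band, and 4 higher (12.7%) and 4 lower (13.2%) among 27 in the band inside the border. Bands near the border also differed from their reflections in their cells. At 3 days the choroid plexus list had log2 ratios of -5.10 in the inner band, 3.45 within 250 µm outside and 1.64 at 250 to 500 µm. The thalamic neuron list was at -2.99 and -1.68 in those 2 outer bands. At 28 days the choroid plexus list was at 7.65 within 250 µm outside. The part of these lists in the band values of the members was not tested.

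Outside the zone, the counts that follow are of members with at least 200 UMIs, each beside the share of all genes past the fold. Those shares are small in most of these bands, so low counts are not read as a result about the members. Within 250 µm of the border at 3 days, 27 members were read, none was higher (13.3% of genes) and 1 was lower (8.62%), namely Bnip3. Ldha in that band lay just within the fold, with a log2 ratio of 0.58 (0.37 to 0.80). In the inner band at 3 days Ldha was past the fold, at 0.93 (0.59 to 1.28). From 250 to 500 µm, Ldha and Pfkfb3 were higher (5.96%) and none was lower (3.18%). From 500 to 1000 µm and from 1000 to 2000 µm there were none, with backgrounds of 2.12% and 0.438% higher and 0.966% and 0.496% lower. At 28 days none of the members with at least 200 UMIs lay past the fold up to 1000 µm, where 4.69%, 2.50% and 2.85% of genes were higher and 0.982%, 1.79% and 2.61% lower in the 3 bands in turn. From 1000 to 2000 µm, Slc16a7 and Egln3 were higher (2.80%) and none was lower (1.86%). In these bands Egln3 at 1000 to 2000 µm, Pfkfb3 at 3 days and Hif1a at 28 days in the inner band, and Bnip3 inside the border at 3 days and in the inner band at 28 days reached 200 UMIs only through the area where they were high, which fixed their calls.

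Hk2, Slc16a3 and Hif1a were highest in the inner band, and their levels were lower toward the border. Hk2 was at 35.2 CPM in the inner band, 20.7 CPM inside the border and 8.27 CPM just outside it at 3 days, and at 37.9, 20.2 and 5.49 CPM at 28 days. The mirrored bands held 2.90, 6.40 and 3.71 CPM at 3 days and 1.30, 3.02 and 2.47 CPM at 28 days, on 4 to 35 UMIs each. Slc16a3 was at 63.99, 29.0 and 11.8 CPM in these bands at 3 days and at 31.6, 17.6 and 5.05 CPM at 28 days. Hif1a was at 63.1, 42.6 and 39.8 CPM at 3 days and at 83.4, 56.7 and 33.1 CPM at 28 days, against 25.6 to 34.2 CPM in the mirrored bands of both sections. The late phagocyte list had log2 ratios of 5.16 in the inner band, 3.19 inside the border and 0.25 just outside it at 3 days, and of 6.47, 5.10 and 1.28 at 28 days. That fall across the border follows from placing the zone with phagocyte genes.

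Pfkfb3 and Slc16a1 had different courses in the 2 sections. At 3 days Pfkfb3 had a log2 ratio of 1.13 (0.78 to 1.49) in the inner band, 0.28 (0.10 to 0.46) inside the border and again 0.88 (0.58 to 1.19) at 250 to 500 µm outside. At 28 days it was 2.12 (1.85 to 2.40) in the inner band and 1.01 (0.79 to 1.24) inside the border, and from 250 µm outward it lay between -0.37 and -0.34. Slc16a1 was at 108 CPM in the inner band and 176 CPM inside the border at 3 days, and at 240 and 188 CPM at 28 days. The larger level of Slc16a1 was thus inside the border at 3 days and in the inner band at 28 days.

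Inside the zone at 28 days, Eno2 was below its reflection and Aldoc above it. Eno2 was at 226 CPM in the inner band, 411 CPM inside the border, 686 CPM within 250 µm outside and 717 CPM at 250 to 500 µm, and the mirrored bands held 719 to 788 CPM. Aldoc was at 2954 and 3194 CPM in the inner band and inside the border, above the 2224 and 2138 CPM of their reflections. At 3 days Aldoc was at 587 CPM in the inner band, 945 CPM inside the border, 1536 CPM just outside and 2506 CPM at 250 to 500 µm, where its reflection held 2341 CPM. The astrocyte list had a log2 ratio of -0.28 in the inner band at 3 days and 1.07 at 28 days. Ldhb was lowest in the inner band in both sections, with log2 ratios of -1.10 (-1.30 to -0.91) and -1.09 (-1.19 to -0.98).

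Pdk1 and Egln3 were also above the reflection far from the zone at 28 days. Pdk1 had log2 ratios between 0.45 and 0.95 in all 6 bands at 28 days, with every interval above 0. At 3 days Pdk1 was at -0.78 (-1.33 to -0.27) in the inner band, at 0.55 (0.32 to 0.79) within 250 µm outside the zone and 0.51 (0.24 to 0.78) at 250 to 500 µm, and at 0.00 (-0.19 to 0.20) at 1000 to 2000 µm. Egln3 had 111 UMIs at 500 to 1000 µm from the 28 days zone and 15 in the reflection, and 171 against 43 UMIs at 1000 to 2000 µm. Its log2 ratios there were 2.15 (1.41 to 3.07) and 1.48 (1.01 to 2.01), while from 0 to 500 µm both intervals spanned 0. These bands also differed from their reflections in their cells. The cortical excitatory neuron list had log2 ratios of 2.36 at 500 to 1000 µm and 1.31 at 1000 to 2000 µm, and in the farther band the macrophage and monocyte list was at 1.29 and the fibroblast list at 1.61. The part of these lists in the values of Pdk1 and Egln3 was not tested.

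**Figure D4:**
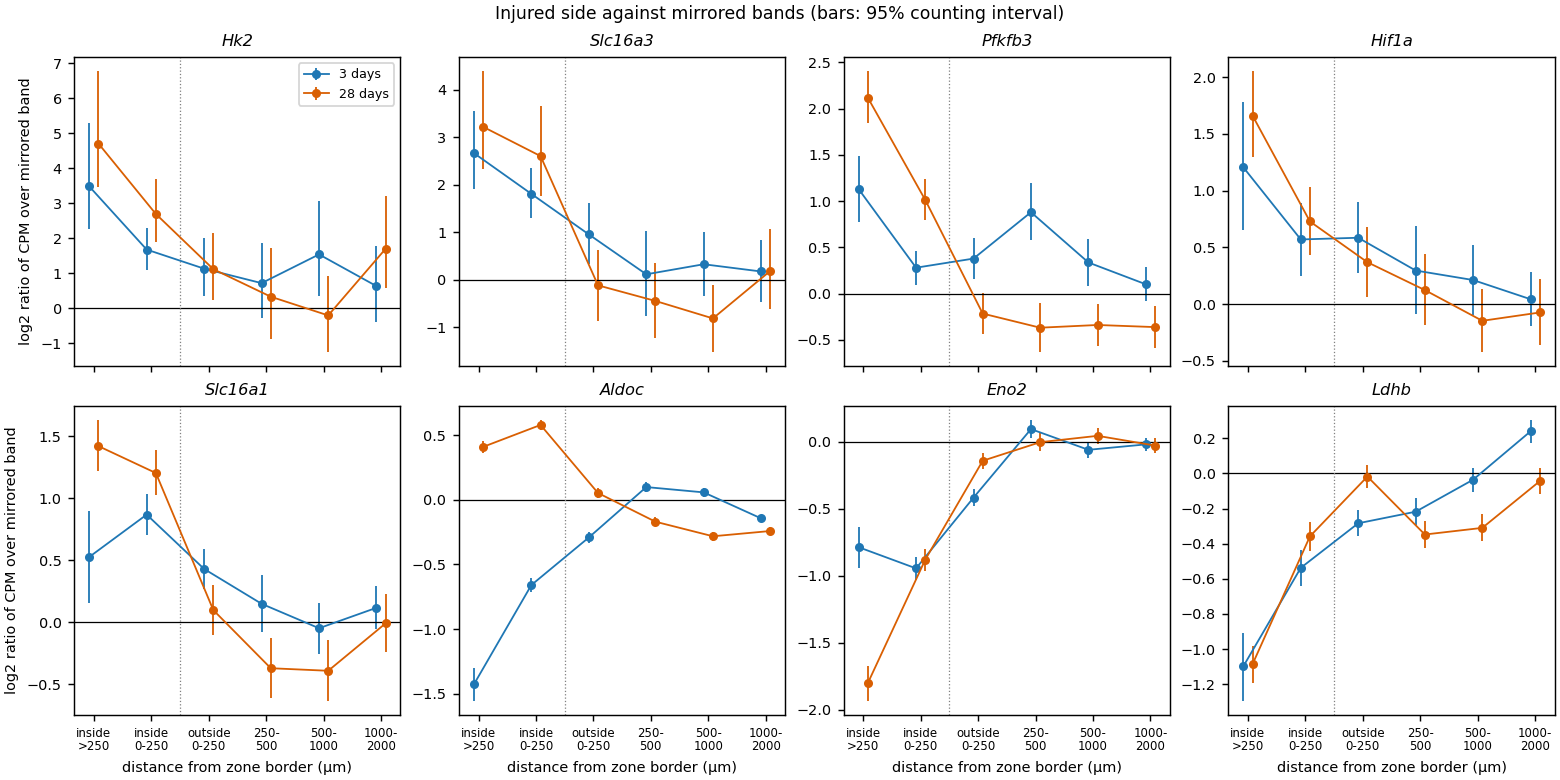
Log2 ratio of CPM, band of the injured side over its reflection, for 8 members in 6 bands of distance in µm from the border of the lesion zone (dotted line), at 3 days (blue) and 28 days (orange), with 95% counting intervals. Hk2, Slc16a3, Hif1a and, at 28 days, Pfkfb3 are highest in the inner band, and Eno2 and Ldhb are lower inside the zone than beyond 500 µm from it.

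Over whole sides, 27 of the 32 members had a ratio closer to 0 than in the zone at each time, and the exceptions included Slc16a7 in both sections. The injured side includes the zone and no share of all genes is given, so nothing about the members is read from this count. At 3 days the injured side held 39116 bins and the opposite side 80501, and at 28 days they held 49478 and 53838. The sides may therefore hold different regions, most of all at 3 days, and the values that follow are a description. The injured side held 6.87 CPM of Hk2 where the opposite side held 2.54 CPM (3 days), and 8.08 where it held 2.52 CPM (28 days), log2 ratios of 1.43 (1.16 to 1.70) and 1.68 (1.36 to 2.00). Slc16a3 was at 10.4 against 4.53 CPM and 7.97 against 4.34 CPM, and Slc16a1 at 90.9 against 59.2 CPM and 79.2 against 58.3 CPM. Slc16a7 was at 22.1 against 34.9 CPM at 3 days, then 28.8 against 33.1 CPM at 28 days. Adm, on 66 UMIs of the injured side at 28 days, was the lowest by side in that section, with a log2 ratio of -0.69 (-1.14 to -0.26). Hif1a was at 0.36 and 0.37 on this scale, and Pfkfb3 at 0.41 and 0.24.

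The opposite side gave a view of where each member lay in tissue away from the lesion. The 5% of opposite-side tiles richest in a marker list (262 tiles at 3 days and 175 at 28 days) were set against the remaining tiles, as a description. Aldoc was at 7134 CPM in astrocyte-rich tiles and 2119 CPM in the rest at 3 days, and at 5632 and 1999 CPM at 28 days. Eno2 was at 923 and 966 CPM in neuron-rich tiles of the 3 and 28 days sections, and at 121 and 126 CPM in oligodendrocyte-rich tiles. Slc2a3 was at 25.8 and 23.8 CPM in oligodendrocyte-rich tiles, against 153 and 146 CPM in the rest.

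Bpgm and Slc16a1 went with oligodendrocyte genes. Bpgm was at 635 CPM in oligodendrocyte-rich tiles and 155 CPM in the rest at 3 days, and at 439 and 159 CPM at 28 days. Slc16a1 was at 192 and 215 CPM in oligodendrocyte-rich tiles of the 3 and 28 days sections, against 57.8 and 56.2 CPM in the rest, and it was also above the rest in tiles rich in endothelium, at 151 and 117 CPM. Egln3 was highest of all the lists in tiles rich in macrophage and monocyte genes, at 95.2 and 58.3 CPM, and next in tiles rich in fibroblast genes, at 86.1 and 52.5 CPM, against 12.8 and 10.1 CPM outside the latter. Adm was at 20.8 and 15.3 CPM in fibroblast-rich tiles, against 2.67 and 2.58 CPM in the rest, and at 20.8 and 15.04 CPM in macrophage-rich tiles.

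Hk2 was scarce on the opposite side and went with microglia. In microglia-rich tiles it had 31 UMIs at 3 days and 10 at 28 days, 19.5 and 12.8 CPM, against 2.21 and 2.34 CPM in the rest. Slc16a3 was at 25.8 CPM in the microglia-rich tiles at 3 days, on 41 UMIs, and at 7.71 CPM at 28 days, on 6 UMIs with an interval that spanned 0. Pfkfb3 was at 123 and 84.8 CPM in these tiles, against 49.0 and 52.6 CPM in the rest. Tiles of 64 µm hold cells of several types, so these levels belong to tissue and not to a cell type.

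**Figure D5:**
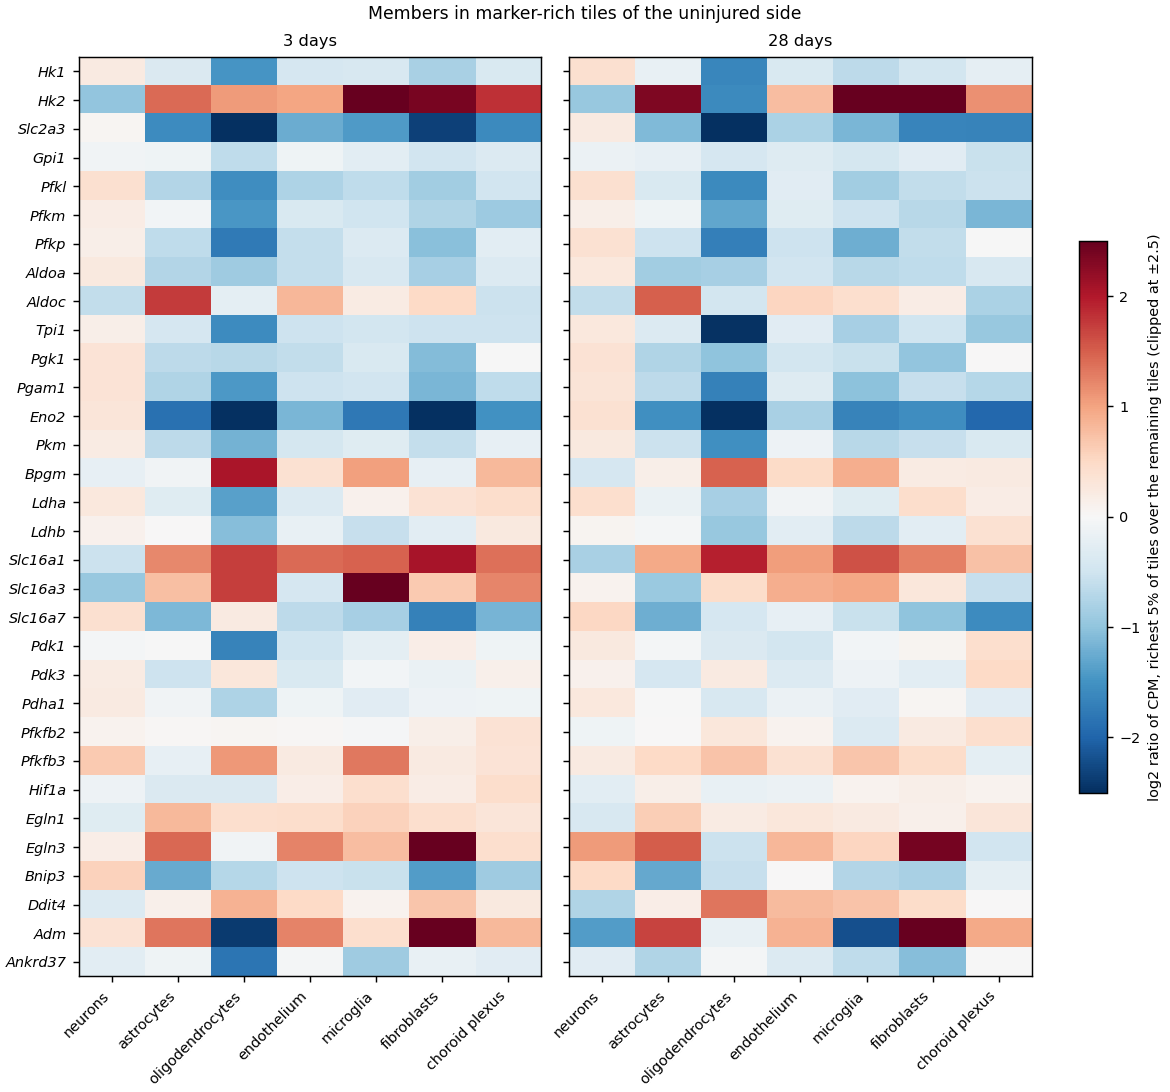
Log2 ratio of CPM for each member in the 5% of opposite-side tiles richest in a marker list over the remaining tiles, at 3 days (left) and 28 days (right), with colours from blue (lower) to red (higher), clipped at 2.5. Aldoc is red for astrocytes, Bpgm and Slc16a1 for oligodendrocytes, and Hk2 for microglia in both sections, and Eno2 and Slc2a3 are dark blue for oligodendrocytes.

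Within the lesion zone the members were also unevenly spread. In the 20% of zone tiles richest in neuron genes, Eno2 was at 859 CPM at 3 days and 654 CPM at 28 days, against 229 and 234 CPM in the rest of the zone. Hk1 in those tiles was at 202 and 172 CPM, against 92.0 and 113 CPM, and Pfkm at 278 and 369 CPM, against 121 and 234 CPM. In the zone tiles richest in late phagocyte genes, Hk2 was at 45.3 and 36.0 CPM, against 20.1 and 24.0 CPM in the rest, and Hif1a at 89.3 and 106 CPM, against 39.8 and 54.8 CPM. Slc16a3 was at 59.1 and 31.2 CPM in the phagocyte-rich tiles, against 32.7 and 20.2 CPM. Egln3 was highest in the macrophage-rich tiles of the 3 days zone, at 70.9 CPM against 10.97 CPM, which held 54 of its 101 zone UMIs. Aldoc in astrocyte-rich zone tiles was at 1622 CPM at 3 days and 4288 CPM at 28 days.

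Between the sections, levels of the opposite sides were compared, on 80501 bins at 3 days and 53838 bins at 28 days. No value over all genes is given beside the ratios that follow, so they are not read as a matching baseline. The log2 ratio of opposite-side CPM, 28 days over 3 days, had a median of -0.02 over the members and ranged from -0.37 to 0.29. Ldhb was highest, at 452 and 553 CPM, and Ldha was among the lowest, at 67.5 and 52.6 CPM. The zone ratio differed most between sections for Hk2, by 1.52 (0.65 to 2.38), for Egln3, by 1.40 (0.82 to 1.98), and for Aldoc, by 1.35 (1.29 to 1.41), each higher at 28 days. For Hk2 the zone held 23.8 and 26.8 CPM and the mirror area 5.50 and 2.13 CPM, and the ratios against the whole opposite side lay close together. For Egln3 the zone itself held less at 28 days, 16.6 against 20.02 CPM, while the mirror area went from 21.6 to 6.76 CPM, and with the fitted line its ratio at 3 days was 0.74 in place of -0.11. The whole opposite side held 14.3 CPM of Egln3 at 3 days and 11.1 CPM at 28 days. The interval of the difference spanned 0 for 9 members, namely Pfkp, Tpi1, Pgam1, Ldha, Ldhb, Pdk3, Pfkfb2, Ddit4 and Adm. Ankrd37 fell by 1.10 on the log2 scale (-1.77 to -0.44), and Bpgm by 0.64 (-0.79 to -0.49), with 1 animal at each time.

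Other genes of these pathways were read from lists that are not members. Among other genes of glycolysis and glucose entry, 5 of 6 read at 3 days and 3 of 6 at 28 days were at least 1.5-fold higher in the zone, and none was lower. The shares of all genes to set beside these and the next counts are 22.0% higher and 17.5% lower at 3 days, and 17.0% and 18.9% at 28 days. Of the higher genes, Hk3, Pgm2 and Galk1 at 3 days and Hk3 and Pfkfb4 at 28 days reached 200 UMIs only through the zone and could then only be higher, so nothing is read from these counts. Hk3, a hexokinase of myeloid cells, had 170 UMIs in the zone and 31 in the mirror area at 3 days and 229 and 23 at 28 days, log2 ratios of 3.10 (2.56 to 3.72) and 3.45 (2.85 to 4.16). Pfkfb4 had log2 ratios of 1.39 (1.10 to 1.70) and 1.45 (1.10 to 1.82), and Pgm2 of 1.46 and 0.82. Of the genes of the fate of pyruvate, none was higher, and 6 of 10 at 3 days and 4 of 10 at 28 days were lower. Pdp1, which reactivates pyruvate dehydrogenase, was at 54.3 against 155 CPM and 104 against 272 CPM, and Dlat, Pdhb and Mpc2 were also past the fold in both sections.

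In the pentose phosphate and glycogen list, 5 of 13 genes were higher at 3 days and 3 of 13 at 28 days, with 2 and 0 lower. Pgd, the second dehydrogenase of the pentose phosphate pathway, was at 59.3 against 21.2 CPM and 58.8 against 21.8 CPM, and Pgls was also higher in both. Of the HIF pathway itself, 1 of 11 genes was higher at 3 days (Epas1, the HIF-2 alpha subunit, at 190 against 113 CPM) and 1 of 11 was lower at 28 days (Eloc). Of the other hypoxia-induced genes, 4 of 16 were higher and 3 lower at 3 days, and 3 of 14 were higher and 2 lower at 28 days, near the shares of all genes, and Hmox1 at 28 days, P4ha2 at 3 days and, in the pentose phosphate and glycogen list, Pygm at 3 days were among the calls that the minimum fixed in the same way. Hmox1, heme oxygenase 1, was at 508 against 15.7 CPM at 3 days and 89.0 against 7.64 CPM at 28 days. Ndrg1 and Txnip were also higher in both sections, and Car12 was the lowest gene of these lists with at least 200 UMIs at 3 days, with a log2 ratio of -2.09 (-2.43 to -1.78). The zone held 18.6 CPM of Car12, the whole opposite side 20.1 CPM and the mirror area 79.7 CPM, where the choroid plexus list was also higher, at 4738 against 1311 CPM in the zone. Vegfa, a classical HIF target, was at 54.5 against 51.4 CPM at 3 days, then 43.7 against 75.2 CPM at 28 days.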

How the data were processed

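Per the labels, perfusion-fixed paraffin sections were run with Visium HD, and the authors deposited raw counts (UMIs per gene and 16 µm bin). The files name Space Ranger 4.0.1 in their headers, and the submitters' processing notes name the build mm10 without a role. Members and lists were chosen with earlier results of these data known.

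With Python 3.11.15, numpy 2.4.6, pandas 2.3.3 and scipy 1.17.1, bins under 100 UMIs were left out (1.93% and 2.15%). Tiles of 4 by 4 bins of the injured side formed the lesion zone where the summed CPM of 6 phagocyte genes, smoothed over 5 by 5 tiles, passed the 99th percentile of the opposite side, in patches of at least 25 tiles. The mirror area was its reflection at column 130 or 240, and 92.3% and 86.6% of zone bins had a mirror bin. Log2 ratios of CPM used a pseudocount of 0.5 UMI and exact conditional binomial intervals, and shares exact Clopper-Pearson intervals, at 95%. The interval of a difference between sections used the Poisson variance. A gene needed 200 UMIs over both areas, and the fold was 1.5. UMIs are molecules, and intervals cover counting error only. Members past the fold in either section, both genes of each isozyme pair and weakly counted members were named with values, and of the other pathway genes those past the fold the same way in both sections and the 2 highest and 2 lowest of a section, of which 1 gene is not reported here. The pair of Eno1 and Eno2 was not analysed here. The scripts were tested on simulated data.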

Additional observations from a re-analysis of the deposited data

Results flagged for a closer look

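Among members past the fold in a section, Aldoc was the member whose log2 ratio, lesion zone over mirror area, had opposite signs at the 2 times with both counting intervals clear of 0: -0.81 at 3 days and 0.54 at 28 days. There was 1 section at each time, and the difference between the times was not tested. Against the whole opposite side, the ratios of Aldoc were -1.37 and 0.57, and counted per bin they were -1.45 and 0.26. The log2 ratio of the astrocyte list was 0.20 at 3 days and 1.08 at 28 days, that of the reactive astrocyte list was 2.25 and 4.90, and the part of these lists in the values of Aldoc was not tested.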

How the results depend on the processing

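Each of the 32 log2 ratios of a section was recomputed under 14 settings, 896 values in all. Of these, 739 moved by less than their counting interval, 157 moved further and 0 turned a value past the fold to the opposite direction. Of the 739, 64 could not move, since each section had 1 patch and keeping the largest patch left all bins in place. A further 33 stayed identical without the array edge, where the 28 days zone had 0 bins in the first 5 columns. A line through the median Gbx2 column moved none by over 0.078. The counts and medians of the set moved as follows. At 3 days, 6 members were lower instead of 10 with a symmetry line fitted to regional genes, 4 were lower once the zone was placed with the 95th percentile, and 8 were higher instead of 4 with the whole opposite side as reference. Counted as UMIs per bin, the median was -0.90 at 3 days and -0.55 at 28 days, with 1 higher and 22 lower at 3 days and 12 lower at 28 days. At a fold of 2, 1 was higher and 2 lower at 3 days, and at 28 days 2 were lower, with Hk2, Pfkfb3, Slc16a1 and Hif1a higher. No share of all genes is given beside the counts of these settings, so nothing about the members is read from them. With the whole opposite side as reference, differences of isozyme shares turned for Pdk1 at 3 days (-4.63 percentage points), Ldha at 28 days (-0.26) and Pfkl at 28 days (-0.50). The causes were not tested. Leaving out bins with erythrocyte UMIs, bins rich in choroid plexus UMIs or the border of the array, all chosen after seeing the data, moved none of the counts by over 1.5 times. No paired analysis was possible because each time had 1 section, and for the same reason no replicate could be left out. Depth limits Hk2, Slc16a3, Egln3, Adm and Ankrd37 most: the mirror area held 17 UMIs of Hk2 at 28 days.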
